A study of Mus musculus with 12 samples.

Results

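The measurements described here are those of 10 genes that mark astrocytes: Gfap, Aqp4, Aldh1l1, Slc1a2, Slc1a3, Gja1, Gjb6, Aldoc, Fgfr3 and Agt. They were taken by name from a table of raw read counts that holds 19878 genes, and all 10 were found in it. All 10 also passed the filter on low counts in every comparison, so none was set aside.

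TRAP-seq, which sequences the RNA held by affinity-tagged ribosomes, was performed on the arcuate nucleus of Pomc-CreER; ROSA26eGFP-L10a mice on a C57BL/6 background, as the sample labels spell the line. The Cre allele is named Pomc-CreERT2 in the methods of the study. In these animals Cre is made where the Pomc promoter is active, and after tamoxifen it switches on a ribosomal protein tagged with GFP. Beads with antibody to GFP then gave the pull-down, and the lysate that did not bind gave the supernatant. The 12 libraries formed 4 groups of 3 replicates: P60 pull-down, P60 supernatant, P12 pull-down and P12 supernatant, where P60 and P12 are postnatal days. The study's methods give a separate tamoxifen course for each age, with different intervals to collection. Age and the timing of tamoxifen therefore cannot be told apart. Every mouse carried both alleles, so the supernatant is not a sample without the tag, and it still holds whatever the beads left of the tagged cells. The sources used here do not give the sex of the mice or how many entered a library, and p-values measure only the spread between these libraries.

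Astrocytes are the glial cells that take up glutamate and potassium after neuronal firing, surround vessels with water channel-rich endfeet, exchange metabolites with neurons and couple to each other through gap junctions. Several of the 10 genes are shared with the tanycytes that line the third ventricle beside the arcuate nucleus, among them Gfap and Slc1a3. None of the 10 is a defining gene of POMC neurons, which the tag was designed to mark. In bulk samples of this kind, fewer cells of a type and less RNA per cell cannot be told apart.

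Total counts were 10791980 to 18774445 in the P60 pull-downs, 16143825 to 22422476 in the P60 supernatants, 6305778 to 19814679 in the P12 pull-downs and 23785154 to 35249290 in the P12 supernatants. P12 pull-down 1 had the lowest total and counts for the fewest genes, 12812. Every pull-down had more genes without a count (5154 to 7066) than any supernatant (2016 to 2855). Depth did not set this alone: P12 pull-down 3 had 19814679 counts over 14262 genes, against 16143825 counts over 17023 genes in P60 supernatant 3. Pomc itself, the gene whose promoter drives Cre, ranged from 2530 to 4510 CPM (raw counts scaled to the library total) in the P60 pull-downs and from 18.4 to 60.3 CPM in the P60 supernatants. At P12 it ranged from 9.83 to 81.7 CPM in the pull-downs and from 7.71 to 9.36 CPM in the supernatants. Of 5 genes of POMC neurons and the tag, 5 were called higher in the P60 pull-down, whereas at P12 only Pomc and GFP were. Prdm12 averaged 1.40 CPM in the P12 pull-downs and 7.13 CPM in the P12 supernatants, Cartpt averaged 16.2 CPM in the P12 pull-downs and 22.4 CPM in the P12 supernatants, and neither was called. The summed level of 12 neuronal genes differed less, with 6187 to 6849 CPM in the P60 pull-downs, 7058 to 7078 CPM in the P60 supernatants, 6938 to 7550 CPM in the P12 pull-downs and 6670 to 7497 CPM in the P12 supernatants. Its members moved both ways, with 4 called higher and 3 lower at P60, and 4 higher, such as Nefm, and 2 lower, Snap25 and Syt1, at P12.

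Together the 10 astrocyte genes made up 0.0845% to 0.105% of all counts in the P60 pull-downs, against 0.117% to 0.127% in the P60 supernatants. In the P12 libraries they made up 0.117% to 0.135% of counts in the pull-downs, against 0.114% to 0.118% in the supernatants. The 10 genes were therefore present in both fractions, in every library except that Gjb6 had no count in P12 pull-down 1, where 3 counts would be 0.476 CPM. Scaled to exonic length, Aldoc and Gfap had the highest levels of the 10 in each group. Aldoc averaged 152 ± 29.6 CPM per kb in the P60 pull-downs and 166 ± 12.0 CPM per kb in the P60 supernatants, and 143 ± 19.2 CPM per kb in the P12 pull-downs and 120 ± 12.9 CPM per kb in the P12 supernatants (SD, n = 3 each). Gfap averaged 37.7 ± 8.02 and 43.5 ± 3.76 CPM per kb in the P60 pull-downs and supernatants, and 89.5 ± 21.5 and 40.0 ± 1.00 CPM per kb in the P12 pull-downs and supernatants (SD, n = 3 each). Group means of Slc1a2 were 12.3 to 25.9 CPM per kb and those of Agt 7.84 to 19.0 CPM per kb, and the other 6 stayed below 9 CPM per kb in every group.

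**Figure D1:**
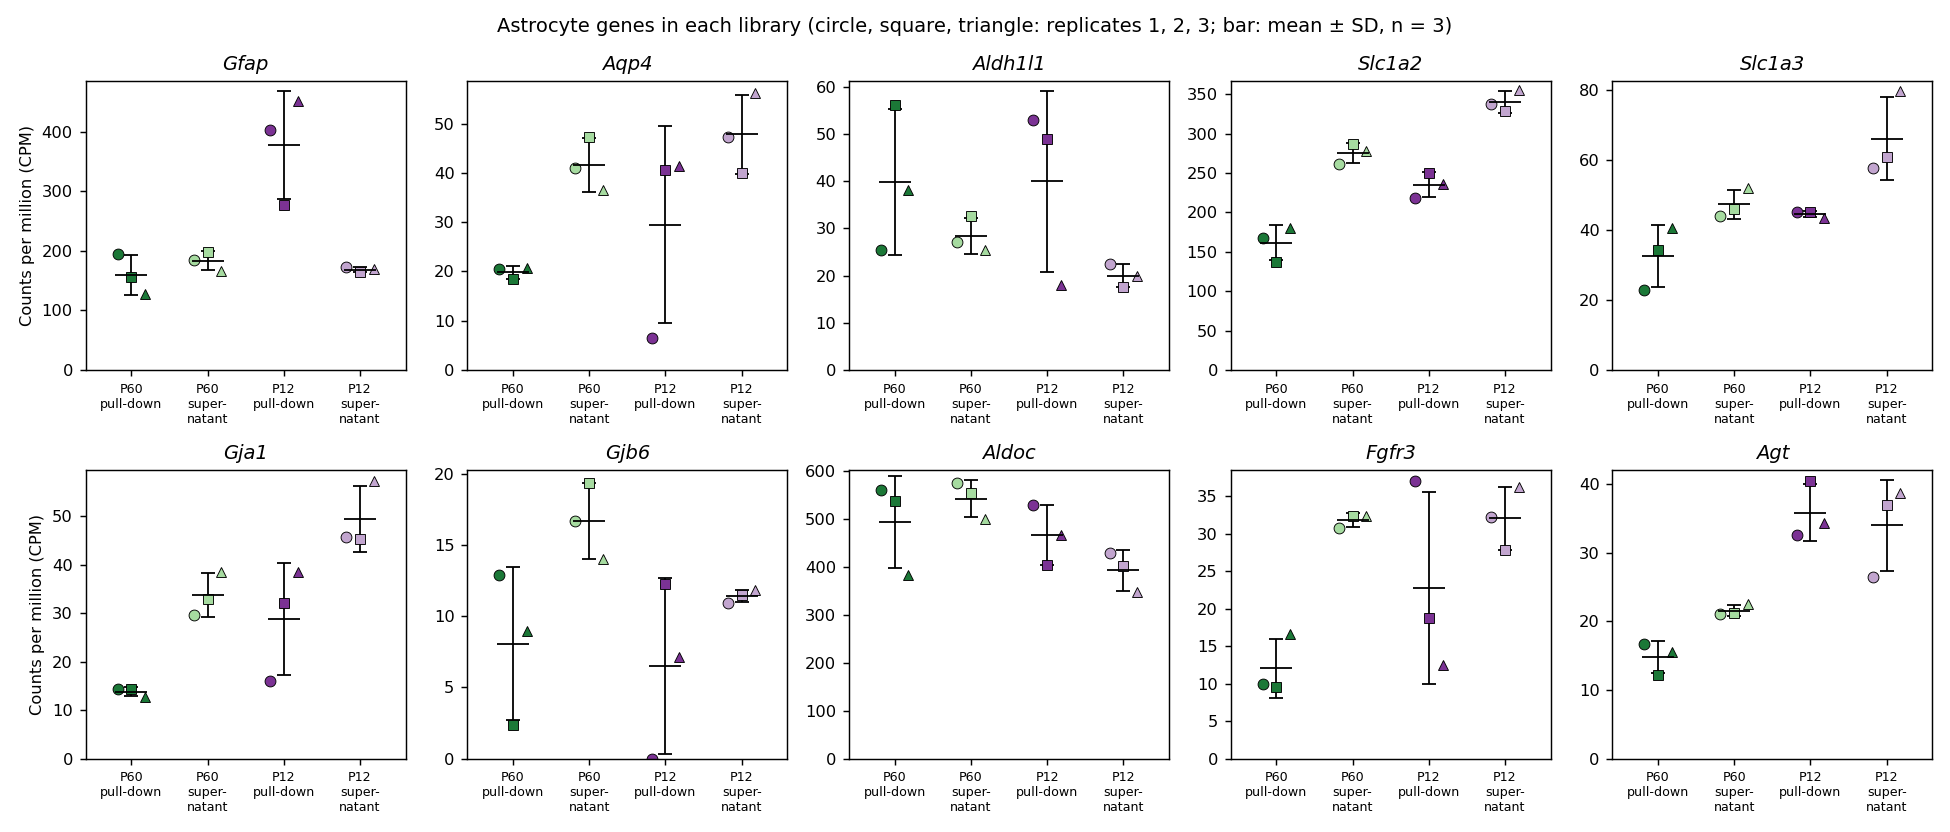
Level of each of the 10 astrocyte genes in CPM (vertical axes, linear from 0) in 12 libraries, grouped as P60 pull-down, P60 supernatant, P12 pull-down and P12 supernatant. Points are libraries and bars are means ± SD of 3 replicates. Gfap lies between 276 and 452 CPM in the P12 pull-downs, above the libraries of the other 3 groups, which lie between 127 and 199 CPM.

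The first question is which of the 10 genes had more or less RNA in the pull-down than in the supernatant at each age. No library came from mice without the tag, so RNA that bound the beads without it was not measured. A gene is called higher or lower here where edgeR's quasi-likelihood test, fitted to all genes with the replicate pair as a block, gave a Benjamini-Hochberg adjusted p below 0.05. At P60, 4 of the 10 were lower in the pull-down and 0 were higher, against 4.53% and 7.11% of 14444 genes tested. The 4 became 2 without P60 replicate 2, without P60 replicate 3 and in 1 fit over all 12 libraries. At P12, 0 of the 10 were lower and 2 were higher, against 1.95% and 6.28% of 14852 genes tested. The median log2 fold change of the 10 was -0.45 at P60, beside -0.10 over all genes tested, and -0.20 at P12, beside -0.27 over all genes tested.

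Gfap, the intermediate filament protein that is used most widely to mark astrocytes, had pull-down over supernatant values that differed between P60 and P12. It had 194, 156 and 127 CPM in P60 pull-downs 1, 2 and 3, against 184, 199 and 167 CPM in their supernatants. At P12 it had 404, 276 and 452 CPM in pull-downs 1, 2 and 3, against 173, 164 and 169 CPM in their supernatants. The P60 fractions overlapped, whereas each P12 pull-down lay above each P12 supernatant, in 3 of 3 pairs. The log2 fold change of pull-down over supernatant was 0.00 ± 0.15 at P60 (SE; edgeR adjusted p = 0.994) and 1.48 ± 0.16 at P12 (SE; adjusted p = 5.58e-06), which is 2.79-fold at P12. The difference between these fold changes, P60 less P12, was -1.51 ± 0.21 (SE; adjusted p = 0.000347) in 1 fit over all 12 libraries. Gfap was the 1 gene of the 10 called in that test, in which 0.686% of 15311 genes were called lower and 0.438% higher, and it was called in each of 12 alternatives to that fit, from -1.68 to -1.30.

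Gfap lies on the minus strand of mouse chromosome 11, from 102887336 to 102897200 (GRCm38), with 4218 bases of annotated exon. Aldoc, which encodes the brain aldolase of glycolysis and was the other gene called higher at P12, lies on the same chromosome, on the plus strand from 78323073 to 78327781. The annotated start regions of these genes, 250 bases before to 50 bases after the start (RefSeq, GRCm38.p6), are shown because they share a palindromic motif of the kind bound by STAT factors, TTCNNNGAA. Its matches are in capitals.
Gfap, chr11:102897151-102897450, minus strand: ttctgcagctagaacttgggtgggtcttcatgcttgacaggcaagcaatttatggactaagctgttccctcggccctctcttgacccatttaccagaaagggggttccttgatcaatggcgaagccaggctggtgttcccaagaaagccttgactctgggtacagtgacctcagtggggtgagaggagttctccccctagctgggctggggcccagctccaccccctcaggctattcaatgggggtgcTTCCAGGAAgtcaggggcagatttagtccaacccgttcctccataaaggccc
Aldoc, chr11:78323948-78324247, plus strand: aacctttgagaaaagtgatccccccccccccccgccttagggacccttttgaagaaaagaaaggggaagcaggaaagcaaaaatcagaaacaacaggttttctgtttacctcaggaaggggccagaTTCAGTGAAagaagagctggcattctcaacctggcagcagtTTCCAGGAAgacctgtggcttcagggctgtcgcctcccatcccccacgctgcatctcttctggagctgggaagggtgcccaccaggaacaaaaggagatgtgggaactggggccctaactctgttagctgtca
The motif reads the same on both strands. It begins at position -2 of the Gfap window and at positions -124 and -83 of this Aldoc window, counted from the start. The start of this Aldoc window is 1125 bases inside the gene, and a second Aldoc window, at the 5' end, did not hold it. Start regions were found for 9 of the 10 genes (11 windows), and 4 of the 9 held the motif: Gfap, Aldoc, Slc1a3 (from -96) and Agt (from -172). Slc1a3 and Agt were not called at either age (log2 fold change of -0.21 and 0.44 at P12). The motif was therefore not confined to the genes called higher at P12. Over 32851 mouse start regions of the same length, 8.30% held it, beside 4 of the 11 windows here. By gene, 9.55% of 27025 genes had it in at least 1 window, beside 4 of the 9. TATAAA, searched on either strand, was in 2 of the 11 windows (Agt and Slc1a3) and in 13.6% of all windows. These are matches of letters, and binding was not measured.

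Aldoc had 561, 538 and 384 CPM in P60 pull-downs 1, 2 and 3, against 575, 555 and 499 CPM in their supernatants. In P12 pull-downs 1, 2 and 3 it had 530, 405 and 467 CPM, against 430, 402 and 347 CPM in their supernatants. The fractions overlapped at each age, although the P12 pull-down was the higher of its pair in 3 of 3 pairs. The log2 fold change was 0.07 ± 0.14 at P60 (SE; adjusted p = 0.820) and 0.60 ± 0.14 at P12 (SE; adjusted p = 0.00994). The P12 call of Aldoc was lost when libraries were scaled by their totals alone (0.25, adjusted p = 0.265) and without P12 replicate 3 (0.50, adjusted p = 0.104). The difference between the ages, -0.56 ± 0.20, was not called (adjusted p = 0.223).

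The 4 genes called lower in the P60 pull-down encode a growth factor receptor, a gap junction protein, a glutamate transporter and a water channel. Fgfr3, a receptor for fibroblast growth factors, had 10.01, 9.59 and 16.6 CPM in P60 pull-downs 1, 2 and 3, against 30.8, 32.3 and 32.4 CPM in their supernatants. Every pull-down lay below every supernatant, and the log2 fold change was -1.22 ± 0.29 (SE; adjusted p = 0.00311, or 0.0638 in 1 fit over all 12 libraries). At P12 it had 37.1, 18.8 and 12.5 CPM in the pull-downs, against 32.2, 27.8 and 36.2 CPM in the supernatants. Those groups overlapped (-0.28 ± 0.43, adjusted p = 0.770), with pull-down 1 the highest of the 6 libraries.

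Gja1, the connexin of most astrocytic gap junctions, had 14.4, 14.4 and 12.7 CPM in P60 pull-downs 1, 2 and 3, against 29.6, 33.0 and 38.5 CPM in their supernatants. The log2 fold change was -1.05 ± 0.28 (SE; adjusted p = 0.00752, or 0.139 without P60 replicate 3), with no overlap. At P12 it had 16.0, 32.2 and 38.5 CPM in the pull-downs, against 45.7, 45.3 and 57.4 CPM in the supernatants. Although the P12 groups did not overlap in CPM either, the fitted change of -0.50 ± 0.33 was not called (adjusted p = 0.468). Gjb6, which encodes a second astrocytic connexin, was measured at lower levels, with 12.9, 2.34 and 8.99 CPM in the P60 pull-downs, against 16.7, 19.3 and 14.0 CPM in the P60 supernatants. It had 0, 12.3 and 7.17 CPM in the P12 pull-downs, against 10.9, 11.5 and 11.8 CPM in the P12 supernatants. Neither change was called (-1.07 ± 0.45, adjusted p = 0.128 at P60, and -1.29 ± 1.23, adjusted p = 0.641 at P12), and P60 pull-down 2 and P12 pull-down 1 stood lowest. Without P60 replicate 1, Gjb6 was called lower at P60 (-1.55, adjusted p = 0.0361).

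Slc1a2, which encodes the main glutamate transporter of astrocytes, had 168, 137 and 181 CPM in P60 pull-downs 1, 2 and 3, against 261, 286 and 278 CPM in their supernatants. At P12 it had 219, 250.6 and 236 CPM in the pull-downs, against 338, 328 and 356 CPM in the supernatants. In CPM the pull-downs lay below the supernatants at both ages, in 3 of 3 pairs each. The fitted log2 fold change was -0.55 ± 0.15 at P60 (SE; adjusted p = 0.00801, or 0.123 without P60 replicate 2 and 0.0743 without P60 replicate 3) and -0.19 ± 0.14 at P12 (SE; adjusted p = 0.543). The size of the P12 value turned on the scaling: with library totals alone it was -0.54 (adjusted p = 0.0181), and with the trend on transcript length removed it was -0.82 (adjusted p = 0.00163). Slc1a2 has 13133 bases of exon, the most of the 10, and in the P12 comparison the median over genes was -0.65 (log2) for the shortest of 4 classes of exonic length and 0.03 for the longest. The difference between the ages was -0.40 ± 0.20 (adjusted p = 0.502).

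Slc1a3, the other astrocytic glutamate transporter, had 22.9, 34.1 and 40.6 CPM in the P60 pull-downs, against 43.9, 46.0 and 52.0 CPM in the P60 supernatants. In the P12 pull-downs it had 45.0, 45.0 and 43.5 CPM, against 57.8, 60.7 and 79.7 CPM in the P12 supernatants. It lay lower in the pull-down in 3 of 3 pairs at each age, but the fitted changes of -0.35 ± 0.22 (adjusted p = 0.376) and -0.21 ± 0.26 (adjusted p = 0.723) were not called. Aqp4, the water channel of the endfeet, had 20.5, 18.4 and 20.8 CPM in P60 pull-downs 1, 2 and 3, against 41.0, 47.3 and 36.5 CPM in their supernatants. The groups did not overlap, and the log2 fold change was -0.84 ± 0.24 (SE; adjusted p = 0.0180, or 0.149 without P60 replicate 2 and 0.276 in 1 fit over all 12 libraries). At P12 it had 6.50, 40.7 and 41.4 CPM in the pull-downs, against 47.3, 40.0 and 56.2 CPM in the supernatants (-0.64 ± 0.46, adjusted p = 0.516). P12 pull-down 1, the library of lowest depth, stood apart with 41 reads of Aqp4, and without its pair the P12 value was 0.16 (adjusted p = 0.892).

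The start regions of Slc1a2 and Gja1 are shown beside those of Gfap and Aldoc as those of 2 genes that were lower in the P60 pull-down. The start used for Slc1a2 is that of the RefSeq window, 48199 bases inside the gene from its annotated 5' end. Neither window holds the STAT motif, so they have no capitals.
Slc1a2, chr2:102706188-102706487, plus strand: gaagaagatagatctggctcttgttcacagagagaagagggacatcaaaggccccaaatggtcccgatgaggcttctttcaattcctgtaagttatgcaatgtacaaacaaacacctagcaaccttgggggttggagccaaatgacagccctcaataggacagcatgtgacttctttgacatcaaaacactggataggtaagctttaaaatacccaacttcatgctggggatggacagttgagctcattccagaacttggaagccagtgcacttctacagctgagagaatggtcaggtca
Gja1, chr10:56377050-56377349, plus strand: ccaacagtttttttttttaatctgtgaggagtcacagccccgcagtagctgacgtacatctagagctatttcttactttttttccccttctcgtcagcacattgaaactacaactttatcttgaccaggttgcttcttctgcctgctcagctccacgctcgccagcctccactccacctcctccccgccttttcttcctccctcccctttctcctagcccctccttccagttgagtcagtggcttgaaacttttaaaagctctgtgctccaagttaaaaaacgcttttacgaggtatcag
The Slc1a2 window is 45.7% G and C and the Gja1 window 47.7%, beside 55.7% for Gfap and 53.3% for the Aldoc window that was shown. The windows of Fgfr3, which was also lower in the P60 pull-down, went the other way, at 69.7% and 73%. The G and C share therefore did not divide the genes by their change. The absence of these letters says nothing of other sites or of sequence outside the windows.

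Aldh1l1 and Agt were not called at either age. Aldh1l1, a folate enzyme widely used to mark astrocytes, had 25.3, 56.0 and 38.2 CPM in P60 pull-downs 1, 2 and 3, against 27.1, 32.7 and 25.3 CPM in their supernatants. In P12 pull-downs 1, 2 and 3 it had 53.0, 48.9 and 17.9 CPM, against 22.5, 17.6 and 19.9 CPM in their supernatants. It was higher in the pull-down in 2 of 3 pairs at each age (0.65 ± 0.24, adjusted p = 0.0705 at P60, and 1.21 ± 0.41, adjusted p = 0.0873 at P12). The exception at P12 was replicate 3, without which the change was 1.70 (adjusted p = 0.00391), and at P60 replicate 1, without which it was 0.96 (adjusted p = 0.0046). DESeq2 (1.25, adjusted p = 0.0306) and 1 fit over all 12 libraries (1.23, adjusted p = 0.0209) also called Aldh1l1 higher at P12. Exons of Aldh1l1, Slc1a2 and Fgfr3 overlap genes on the opposite strand, and reads of both strands cannot be told apart because the strand setting of the counting is not known.

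Agt encodes angiotensinogen, which astrocytes secrete as the precursor of the angiotensins. It had 16.8, 12.1 and 15.6 CPM in the P60 pull-downs, against 21.1, 21.2 and 22.5 CPM in the P60 supernatants. The P12 pull-downs had 32.7, 40.5 and 34.4 CPM, against 26.4, 37.0 and 38.7 CPM in the P12 supernatants. The P60 groups did not overlap and the P12 groups did, and neither change was called (-0.33 ± 0.30, adjusted p = 0.573 at P60, and 0.44 ± 0.33, adjusted p = 0.539 at P12). Over the 10 genes, 7 had lower CPM in every P60 pull-down than in every P60 supernatant, of which the test called 4. None of the 10 lay higher in this way, and of all genes tested at P60 29.2% lay lower and 8.36% higher. At P12, 3 of the 10 lay lower in every pull-down and 1, Gfap, lay higher, against 37.7% and 7.12% of all genes tested.

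**Figure D2:**
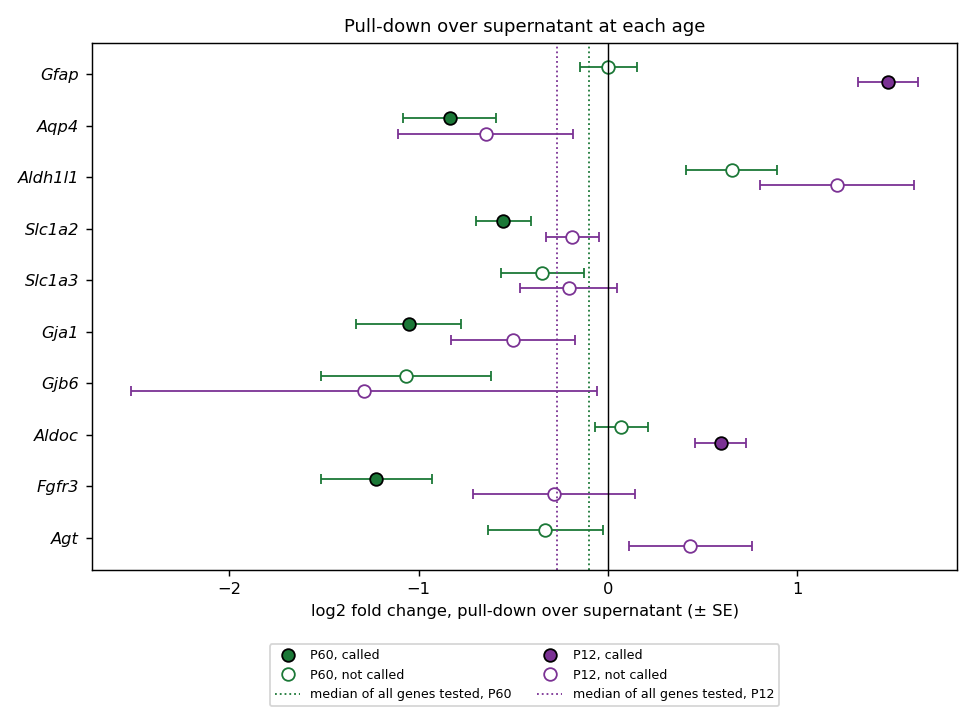
Log2 fold change of pull-down over supernatant (horizontal axis, ± SE) for the 10 astrocyte genes at P60 and P12, from edgeR. Filled points were called at an adjusted p below 0.05 and dotted lines are the medians of all genes tested. Gfap is at 0.00 at P60 and at 1.48 at P12, and the 4 genes called at P60 lie between -1.22 and -0.55.

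These fold changes depend in part on how libraries are scaled. With library totals alone in place of TMM (the trimmed mean of M-values), the median of all genes at P12 moved to -0.61, beside -0.27, and the split of calls became 534 higher and 1387 lower, beside 933 higher and 289 lower. At P60 it moved to -0.32, beside -0.10, with 614 higher and 1789 lower in place of 1027 and 655. Under that scaling Gfap was still called higher at P12 (1.13, adjusted p = 0.00015) and the 4 genes called at P60 were still lower. At P60 Gjb6 was then called lower too (-1.28, adjusted p = 0.0261). Between the ages the same scaling gave 445 higher and 263 lower in the pull-downs, in place of 256 and 422, and 115 higher and 65 lower in the test of the difference, in place of 67 and 105.

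The second question is how the same genes differed between the ages within a fraction. In the supernatants, 3 of the 10 were higher at P60 and 4 were lower, against 20.9% and 20.8% of 15251 genes tested. The higher ones were Aldh1l1 (0.47 ± 0.12, adjusted p = 0.00145), Gjb6 (0.50 ± 0.14, adjusted p = 0.00397) and Aldoc (0.43 ± 0.07, adjusted p = 1.74e-05). Aldoc averaged 543 ± 39.2 CPM in the P60 supernatants and 393 ± 42.1 CPM in the P12 supernatants (SD, n = 3 each). The lower ones were Agt (-0.71 ± 0.12, adjusted p = 2.6e-05), Gja1 (-0.60 ± 0.11, adjusted p = 5.02e-05), Slc1a3 (-0.53 ± 0.11, adjusted p = 0.000157) and Slc1a2 (-0.35 ± 0.07, adjusted p = 0.000213). Both glutamate transporters were thus lower at P60, while the 2 connexins moved in opposite directions. Each of these 7 genes had supernatant values at P60 that did not overlap those at P12, as did 27.4% (higher) and 21.0% (lower) of all genes tested. Gfap (0.08 ± 0.07, adjusted p = 0.412), Aqp4 (-0.24 ± 0.11, adjusted p = 0.0737) and Fgfr3 (-0.05 ± 0.10, adjusted p = 0.719) were not called. Aqp4 was called lower with no filter on low counts (-0.24, adjusted p = 0.0315), without P12 supernatant 2 (-0.35, adjusted p = 0.0153) and without P60 supernatant 2 (-0.35, adjusted p = 0.0192). In 1 fit over all 12 libraries, which takes the spread of pull-downs and supernatants together, none of the 7 was called (0 higher and 0 lower).

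In the pull-downs, 0 of the 10 were higher at P60 and 3 were lower, against 1.89% and 3.11% of 13570 genes tested. Gfap averaged 159 ± 33.8 CPM in the P60 pull-downs and 377 ± 90.8 CPM in the P12 pull-downs (SD, n = 3 each), a log2 fold change of -1.42 ± 0.22 (adjusted p = 0.00125). It was called in each of 13 alternatives, between -1.58 and -1.23. Agt averaged 14.8 ± 2.39 CPM in the P60 pull-downs and 35.9 ± 4.14 CPM in the P12 pull-downs (-1.45 ± 0.40, adjusted p = 0.0489), and Slc1a2 averaged 162 ± 22.5 CPM in the P60 pull-downs and 235 ± 16.0 CPM in the P12 pull-downs (-0.71 ± 0.20, adjusted p = 0.0481). The calls of Agt and Slc1a2 were lost with library totals alone (adjusted p = 0.0951 and 0.153) and without any 1 library other than P12 pull-down 1 (adjusted p from 0.0842 to 0.199). They were also lost with the replicate number added as a block (adjusted p = 0.0814 for Agt and 0.0594 for Slc1a2). With the length trend removed Slc1a2 was at -0.32 and not called (adjusted p = 0.482), whereas Agt was still called (-1.81, adjusted p = 0.0185). Without P12 pull-down 1, Aqp4 (-1.24, adjusted p = 0.0459) and Gja1 (-1.55, adjusted p = 0.0274) were called lower as well, and 1 fit over all 12 libraries also called Gja1 (-1.28, adjusted p = 0.00981). In CPM, 5 of the 10 lay lower in every P60 pull-down than in every P12 pull-down and 0 lay higher, against 8.08% and 18.6% of all genes tested. These values come from the pull-downs that also enter the comparisons with the supernatants, so they are not a separate measurement.

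**Figure D3:**
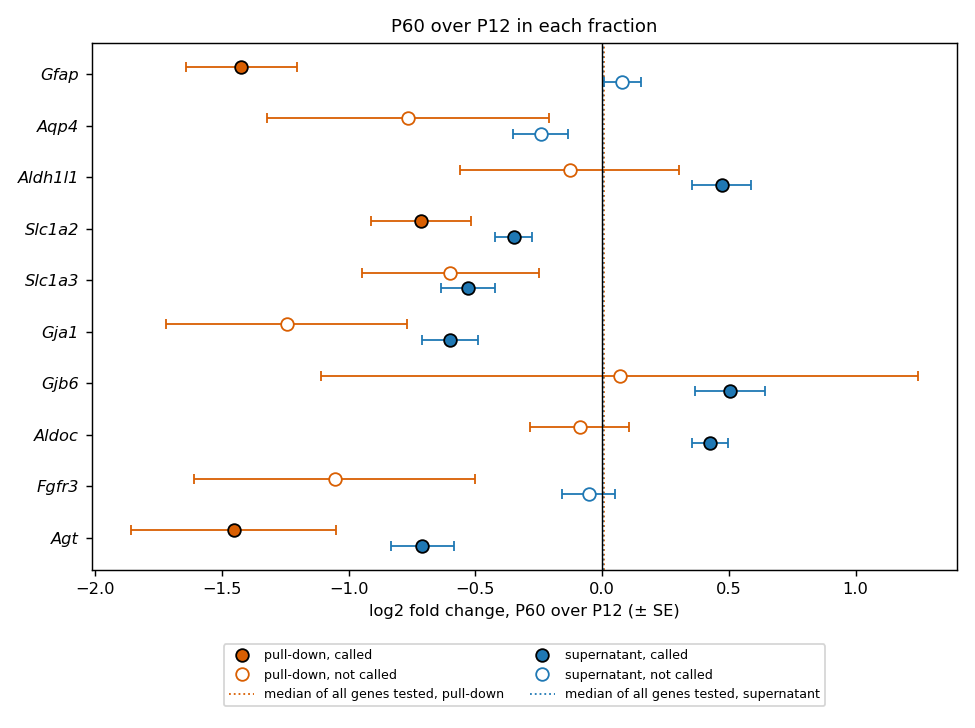
Log2 fold change of P60 over P12 (horizontal axis, ± SE) for the 10 astrocyte genes in the pull-downs and in the supernatants, from edgeR. Filled points were called at an adjusted p below 0.05 and dotted lines are the medians of all genes tested. In the pull-downs Gfap is at -1.42, and in the supernatants it is at 0.08.

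A further 91 astrocyte genes were grouped by role, and their counts were set beside those of the 10. Of all genes tested, 4.53% were called lower and 7.11% higher at P60, and 1.95% lower and 6.28% higher at P12. Of 17 genes for transmitter, ion and glucose handling, 6 were lower and 0 higher in the P60 pull-down, and 0 were lower and 2 higher in the P12 pull-down. Kcnj10, the potassium channel of astrocytes, had 27.2, 25.3 and 39.6 CPM in the P60 pull-downs, against 67.8, 70.3 and 64.2 CPM in the P60 supernatants (-0.94, adjusted p = 0.00147, or 0.0541 in 1 fit over all 12 libraries). At P12 the genes called higher were Slc4a4, a bicarbonate transporter (0.71, adjusted p = 0.0363), and Glul, which encodes glutamine synthetase (0.55, adjusted p = 0.0217).

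Of 17 transcription factor and signalling genes, 6 were lower and 1 higher in the P60 pull-down, against 4.53% and 7.11% of all genes, and 0 were lower and 2 higher in the P12 pull-down, against 1.95% and 6.28%. Id3, an inhibitor of basic helix-loop-helix factors, was lower at P60 (-1.97, adjusted p = 0.0228). The 1 higher at P60 was Stat3, a transcription factor activated by cytokine receptors, with 163, 150 and 109 CPM in P60 pull-downs 1, 2 and 3, against 69.4, 66.7 and 57.6 CPM in their supernatants (1.33 ± 0.16, adjusted p = 6.6e-08). Stat3 was called at P12 too (0.83 ± 0.22, adjusted p = 0.0285), beside Notch2, a Notch receptor (1.70, adjusted p = 0.0195). With library totals alone the P12 calls of Slc4a4, Glul, Stat3 and Notch2 were lost (adjusted p from 0.0567 to 0.384). Each of the 4 was also lost without at least 1 P12 replicate (adjusted p from 0.0517 to 0.186), and Slc4a4, Stat3 and Notch2 with the length trend removed (adjusted p from 0.116 to 0.679). That of Id3 was lost without P60 replicate 3 (adjusted p = 0.194) and in 1 fit over all 12 libraries (adjusted p = 0.187). Of 15 metabolic genes, 2 were higher and 1 lower at P60, and 2 were higher and 0 lower at P12. Pygb, the brain form of glycogen phosphorylase, was higher at both ages (0.83 at P60 and 1.36 at P12), and Fabp7, a fatty acid binding protein of radial glia and young astrocytes, was lower at P60 (-1.57, adjusted p = 0.00203, or 0.0599 without replicate 3). Of 24 genes for secreted and surface proteins, 2 were higher and 2 lower at P60, and 1 was higher and 0 lower at P12.

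Genes of filaments and of the reactive state made up the 1 list of the 5 whose P60 calls were all higher in the pull-down. Of 12 tested at P60, 4 were higher and 0 lower, against 7.11% and 4.53% of all genes, and of 13 tested at P12, 2 were higher and 0 lower, against 6.28% and 1.95%. The sum over all 18 was 293 to 378 CPM in P60 pull-downs, against 159 to 172 CPM in P60 supernatants, and 263 to 311 CPM in P12 pull-downs, against 142 to 151 CPM in P12 supernatants. Vim, Synm and Serpina3n carried 73.0% to 84.4% of that sum in each library, and up to 6 of the 18 at P60 and 11 at P12 had no count in a pull-down. Vim, which encodes vimentin, had 58.2, 65.0 and 73.1 CPM in the P60 pull-downs, against 40.8, 42.5 and 32.8 CPM in the P60 supernatants (0.98 ± 0.20, adjusted p = 0.000521). At P12 it had 127, 90.6 and 107 CPM in the pull-downs, against 42.1, 47.0 and 47.7 CPM in the supernatants (1.58 ± 0.22, adjusted p = 0.000101). Synm, which encodes the filament protein synemin, was called at both ages as well (1.05 ± 0.16, adjusted p = 7.33e-06 at P60, and 1.56 ± 0.23, adjusted p = 0.000208 at P12). Neither Vim (-0.63 ± 0.30, adjusted p = 0.454) nor Synm (-0.54 ± 0.28, adjusted p = 0.518) was called in the test of the difference between the ages, in which Gfap was called. Nes, which encodes nestin, was not called at P60 (0.74 ± 0.47, adjusted p = 0.379) or at P12 (1.71 ± 0.57, adjusted p = 0.0847).

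**Figure D4:**
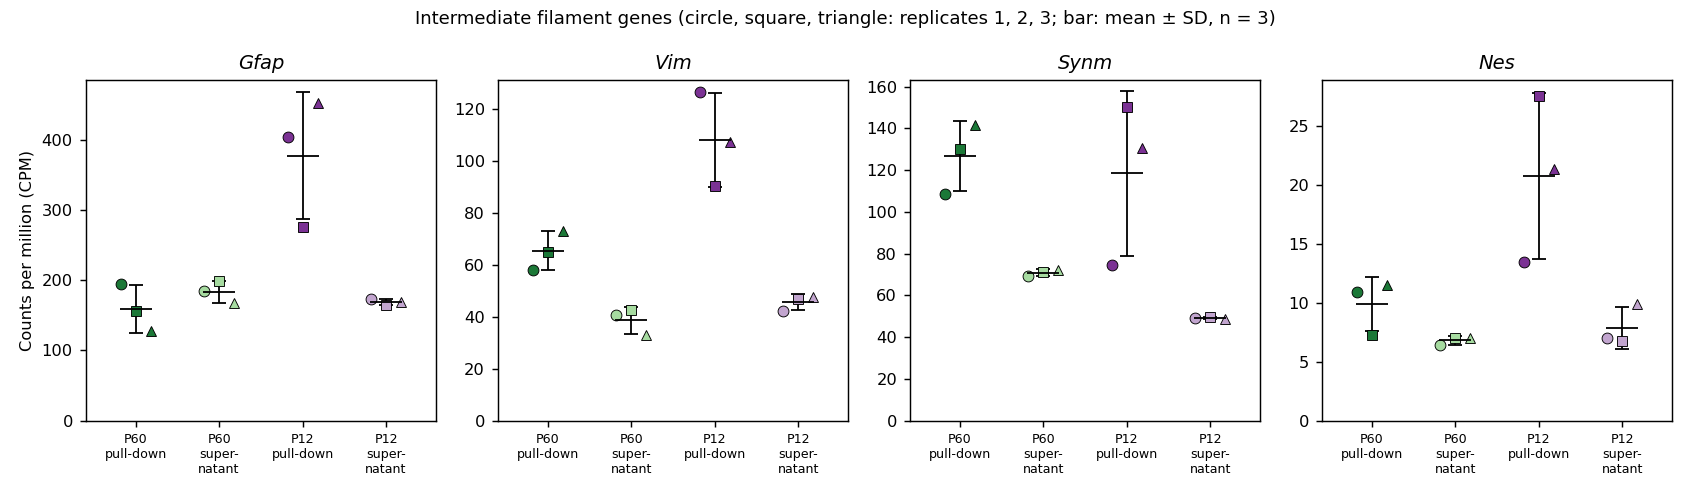
Level of 4 intermediate filament genes in CPM (vertical axes, linear from 0) in P60 pull-down, P60 supernatant, P12 pull-down and P12 supernatant libraries. Points are libraries and bars are means ± SD of 3 replicates. Vim and Synm lie higher in the pull-down than in the supernatant at both ages, whereas the Gfap fractions overlap at P60.

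Serpina3n and Cd44, of the reactive-state list, were higher in the P60 pull-down. In the same comparison Gfap was not called, 4 of the 10 astrocyte genes were lower and all 5 genes of the POMC list were higher. Which cells the reads of Serpina3n and Cd44 came from was not tested. Serpina3n, a secreted protease inhibitor that rises in reactive astrocytes, had 123, 52.1 and 86.2 CPM in P60 pull-downs 1, 2 and 3, against 14.4, 23.7 and 23.0 CPM in their supernatants (2.26 ± 0.24, adjusted p = 3.26e-09). In the P12 pull-downs it had 12.8, 13.3 and 4.19 CPM, against 17.7, 18.7 and 11.7 CPM in the P12 supernatants. Its difference between the ages was called in the direction opposite to that of Gfap (2.68 ± 0.49, adjusted p = 0.00485). Cst3, which encodes the protease inhibitor cystatin C, also differed between the ages (1.32 ± 0.27, adjusted p = 0.0115), with 141 ± 25.7 CPM in the P60 pull-downs, against 108 ± 9.13 CPM in the P60 supernatants, and 45.4 ± 10.1 CPM in the P12 pull-downs, against 97.3 ± 16.0 CPM in the P12 supernatants (SD, n = 3 each).

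The age differences of Serpina3n and Cst3 were not called without P60 replicate 1 (adjusted p = 0.101 and 0.0502) or without P60 replicate 3 (adjusted p = 0.0684 and 0.101). That of Cst3 was not called with the length trend removed either (0.89, adjusted p = 0.174).

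Between the ages, Agxt2l1, a phospholyase gene of mature astrocytes now named Etnppl, was higher at P60 in both fractions. It had 12.5, 22.1 and 23.0 CPM in the P60 pull-downs, against 0, 0.444 and 2.42 CPM in the P12 pull-downs (4.07, adjusted p = 0.0361). It averaged 22.3 ± 5.61 CPM in the P60 supernatants and 1.89 ± 0.483 CPM in the P12 supernatants (SD, n = 3 each), a change of 3.49 (adjusted p = 1.51e-14). Its pull-down call was lost when any of 4 libraries was left out (adjusted p from 0.0832 to 0.200). Fabp7 went the other way, at -2.94 in the pull-downs (adjusted p = 0.00179) and -1.90 in the supernatants (adjusted p = 1.29e-15). Ncan, which encodes the matrix proteoglycan neurocan, was lower at P60 too (-1.93 in the pull-downs and -1.50 in the supernatants). Of 86 genes of the 5 lists tested in the supernatants, 23 were higher and 20 lower at P60, against 20.9% and 20.8% of all genes. Of 79 tested in the pull-downs, 3 were higher and 3 lower, against 1.89% and 3.11% of all genes.

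Markers of other cells were read beside these values, with the same shares of all genes called (4.53% lower and 7.11% higher at P60, 1.95% and 6.28% at P12). Myelin genes (10) summed to 1188 to 1289 CPM in the P60 pull-downs, against 2352 to 2418 CPM in the P60 supernatants, and 8 of 10 were called lower in the P60 pull-down. At P12 they summed to 910 to 1227 CPM in the pull-downs, against 1150 to 1276 CPM in the supernatants, and 2 of 10 were called lower. Tanycyte and ependymal genes (11) summed to 28.5 to 42.0 CPM in the P60 pull-downs, against 55.1 to 66.4 CPM in the P60 supernatants, and to 35.4 to 57.0 CPM in the P12 pull-downs, against 65.3 to 66.5 CPM in the P12 supernatants, and 0 of 10 tested were called at either age. Oligodendrocyte precursor genes (7) summed to 165 to 206 CPM in the P60 pull-downs, against 286 to 298 CPM in the P60 supernatants, and to 326 to 374 CPM in the P12 pull-downs, against 436 to 471 CPM in the P12 supernatants. Of these 7, 2 were called lower and 0 higher at P60, and 0 lower and 1 higher at P12. Microglial genes (10) summed to 23.6 to 30.1 CPM in the P60 pull-downs, against 40.4 to 44.5 CPM in the P60 supernatants, and to 25.7 to 45.7 CPM in the P12 pull-downs, against 39.4 to 40.2 CPM in the P12 supernatants. Vascular genes (13) summed to 30.7 to 50.04 CPM in the P60 pull-downs, against 38.7 to 46.9 CPM in the P60 supernatants, and to 47.1 to 93.1 CPM in the P12 pull-downs, against 44.0 to 46.4 CPM in the P12 supernatants. Of the microglial genes, 0 of 10 were called at either age, and of the vascular genes 1 was called higher and 0 lower at each age, of 10 tested at P60 and 12 at P12. These sums are scaled to library totals, the scale on which 29.2% of all genes lay lower without overlap at P60 and 37.7% at P12. Of these 5 lists of other cells, only the myelin list had most of its members called lower at P60. Calls also depend on level, and the microglial, vascular and tanycyte sums were low. The P60 median log2 fold changes were -1.26 for microglial, -0.99 for tanycyte and ependymal and -0.90 for myelin genes. They were -0.56 for precursor and -0.54 for vascular genes, beside -0.45 for the 10 astrocyte genes and -0.10 over all genes tested. The ependymal gene Tmem212 had no count in any pull-down, Ly6c1 and Lum had none in the P60 pull-downs and Rarres2 had none in the P12 pull-downs. Rax, which defines tanycytes, ranged from 0 to 4.58 CPM in the P60 pull-downs, against 2.36 to 5.34 CPM in the P60 supernatants, and from 0 to 8.88 CPM in the P12 pull-downs, against 0.963 to 1.43 CPM in the P12 supernatants. Their part in the astrocyte values was not tested.

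The 10 genes did not share 1 profile over the 12 libraries. Likeness was measured as the root mean square difference of log2(CPM + 1), each gene centred on its own mean over 12 libraries. The most alike pair of the 10 was Slc1a2 and Slc1a3, the glutamate transporters (0.22), and the least alike was Aldh1l1 and Gjb6 (1.55). Among 15311 genes tested, those most like Gfap were Topors (0.21), Ccdc39 (0.21) and Ppp1r9b (0.22), and those most like Slc1a2 were Pcdh10 (0.10), Prpf38a (0.11) and 4930506M07Rik (0.11). Dip2a, Add1 and Mdh1 lay nearest to Aldoc (0.13 to 0.14), and Pcdh19, Mmp24 and Ttyh1 nearest to Agt (0.17 to 0.19). Of the 30 nearest genes of the 10, 0 belonged to the 10 or to the other astrocyte lists, and 28 of the 30 were the same with a pseudocount of 0.5. Only the 10 and 88 genes of the other astrocyte lists were among the 15311 compared. With so small a share, a count of 0 says little about the astrocyte genes. The libraries of a group share their depth and fraction, so these distances describe profiles only.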

How the data were processed

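TRAP-seq libraries of the arcuate nucleus were made from RNA depleted of ribosomal RNA with a stranded total RNA kit, although 1 label field names the molecule as polyA RNA. The submitters' processing notes name mm10, TopHat2 2.0.13, Bowtie2 2.2.1 and HTSeq. The annotation and strand setting of the counting are not stated there. The authors deposited unnormalized read counts, 1 table over all samples, and 12 files of single samples that held identical values.

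Counts were fitted with edgeR (version 4.0.16, R 4.3.3) using TMM factors, filterByExpr and the quasi-likelihood test, and p-values were adjusted over every gene tested (Benjamini-Hochberg, threshold 0.05). The script was tested on simulated data. Fold changes are log2 ± SE, and CPM are raw counts over the library total. Fractions were compared within an age, and their difference over all 12 libraries, with the replicate number as a block, after the paired model of the study. Ages were compared without one. The deviations of libraries with the same number had correlations of 0.0126 to 0.0379 (P12) and 0.00256 to 0.0371 (P60), so over all genes the pairing rests on that model. The share of counts from Rn45s, however, rose from replicate 1 to 3 in all 4 groups. In replicates 1, 2 and 3 it was 1.68%, 4.06% and 5.57% in the P60 pull-downs and 1.55%, 3.64% and 4.99% in the P60 supernatants. At P12 it was 1.84%, 4.95% and 5.07% in the pull-downs and 1.77%, 3.36% and 6.71% in the supernatants. The replicate number thus followed a feature shared by both ages, whose cause was not tested. Alternatives were DESeq2 1.42.0, library totals alone, median-of-ratios scaling, no filter, removal of a loess trend on exonic length, the block dropped or added, 1 fit over all 12 libraries, and leaving out each pair or library. No library repeated another of its group (chi-square over degrees of freedom, 9.86 to 92.2).

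All 10 genes are named. From the other astrocyte lists, the 2 called genes with the largest change per list and comparison could be named, and Nes and values of named genes in the other comparisons were added after their values were seen. The members and lists were chosen with earlier results of these data known. Start regions come from RefSeq (GRCm38.p6) and exonic lengths from GENCODE. A result that the naming rule would give is not reported here.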

Additional observations from a re-analysis of the deposited data

Results flagged for a closer look

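In 3 of the astrocyte genes named here the change of pull-down over supernatant differed between the ages in the edgeR test of the difference (P60 less P12, log2). Outside the astrocyte genes, all 5 genes of POMC neurons and the tag were called higher in that test and 0 lower. Their median was 4.75, beside 0.04 over all genes tested, and 0.438% of 15311 genes were called higher. Gfap differed by -1.51 (adjusted p = 0.000347), higher in the pull-down in 1 of 3 pairs at P60 and in 3 of 3 pairs at P12. Cst3 differed by 1.32 (adjusted p = 0.0115, or 0.174 with the length trend removed), and Serpina3n by 2.68 (adjusted p = 0.00485).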

How the results depend on the processing

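For the 10 genes, 580 values were recomputed under alternatives: 506 kept their direction and their side of the threshold, 31 lost a call, 14 gained one, and 29 changed sign, 0 of which had been called. At P12, library totals alone gave 1 higher and 1 lower (Gfap and Slc1a2), and removal of the length trend gave 1 lower (Slc1a2). At P60, the fit over all 12 libraries gave 2 lower in the pull-down. There Aqp4 (-0.85, adjusted p = 0.276) and Fgfr3 (-1.24, adjusted p = 0.0638) lost their calls. For the supernatants of both ages that fit gave 0 higher and 0 lower. For the pull-downs of both ages, library totals alone and the replicate block each gave 1 lower (Gfap). Without 1 pair, P60 counts ranged from 0 to 1 higher and from 2 to 5 lower: Slc1a2 (-0.45, adjusted p = 0.123) and Aqp4 (-0.72, adjusted p = 0.149) lost their calls without replicate 2, and Slc1a2 (-0.64, adjusted p = 0.0743) and Gja1 (-0.90, adjusted p = 0.139) without replicate 3. Without 1 library, the count of genes lower in P60 than in P12 pull-downs ranged from 1 to 5, and Gjb6 lost its supernatant call without P60 supernatant 2 (0.37, adjusted p = 0.0614).

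At P60, Gfap became -0.22 and Aldoc -0.15 with library totals alone, and Gfap -0.00245 with no filter and -0.0144 in the fit over all 12 libraries. In the difference of the ages, removal of the length trend gave Slc1a3 0.0557 and Gjb6 -0.0690, and dropping the replicate block gave Gjb6 -0.50. Between pull-downs, library totals alone gave Aldh1l1 0.00108 and Aldoc 0.0816, and removal of the length trend gave Gjb6 -0.14. With 1 pair or library left out, values that changed sign spanned, at P12, Aqp4 -1.26 to 0.16, Gjb6 -3.07 to 0.0560 and Fgfr3 -0.68 to 0.17; at P60, Gfap -0.10 to 0.0810 and Aldoc -0.0240 to 0.18; in the difference, Gjb6 -1.15 to 1.38, Aqp4 -1.01 to 0.38 and Slc1a3 -0.29 to 0.11; in supernatants, Fgfr3 -0.14 to 0.0631; and in pull-downs, Aldh1l1 -0.49 to 0.16, Gjb6 -0.51 to 0.91 and Aldoc -0.18 to 0.0477. The causes were not tested. Over all genes, the alternatives gave 534 to 1140 higher and 233 to 1387 lower at P12 (933 and 289 as reported), 563 to 1154 and 241 to 1789 at P60 (1027 and 655), 22 to 223 and 42 to 226 for the difference (67 and 105), 303 to 3521 and 293 to 3279 between supernatants (3182 and 3168), and 86 to 1292 and 161 to 1469 between pull-downs (256 and 422). The replicate block changed no other call among the 10 genes than Agt and Slc1a2 in the pull-downs of both ages. Depth was lowest in P12 pull-down 1, where 3 counts are 0.476 CPM. More genes had no count in every pull-down than in any supernatant, also where the pull-down was the deeper library, and the cause was not tested.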
